A study of Mus musculus with 6 samples.

Results

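Immediate-early genes, 10 in number, were followed in sorted bladder cells of newborn mice: Fos, Fosb, Jun, Junb, Jund, Egr1, Atf3, Ier2, Dusp1 and Zfp36. They were chosen by name, and every probe set annotated with one of these symbols and no other was taken. That gave 12 of the 45037 probe sets other than controls on the array, and 10 of the 18193 genes that such probe sets name. All 10 genes and all 12 probe sets had a mean signal above the limit set for dim probe sets.

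The mice were male FVB/N at postnatal day 2, offspring of SMAA/EYFP and SMGA/EGFP transgenic parents. A promoter of alpha smooth muscle actin, the product of Acta2, drove EYFP, and one of gamma smooth muscle actin, the product of Actg2, drove EGFP. Double-positive cells (EGFP positive, EYFP positive, 3 arrays) were set against single-positive cells (EGFP positive, EYFP negative, 3 arrays), and all 6 samples came from bladders that had been dissected, digested with Blendzymes and sorted by fluorescence before RNA was frozen. Both populations are labelled as detrusor, which is the muscle of the bladder wall. Acta2 signal was 59801 ± 11165 in double-positive arrays, against 62346 ± 9277 in single-positive arrays, and Actg2 signal, which is tied to the reporter that both carry, was 10595 ± 3281 in double-positive arrays, against 60131 ± 8405 in single-positive arrays (SD, n = 3 each). These signals are from the brightest probe set of each gene. Of 2 other tested Acta2 probe sets 1 was lower in double-positive arrays (adjusted p under 0.05 in limma over all probe sets). Most other smooth muscle markers fell in double-positive arrays, as given further on. Separate animals are not named for the 3 samples of a group. The p-values therefore cover the spread among these samples only, and that spread may be technical. None of the 6 samples is of undissociated bladder, so whether digestion and sorting raised these genes was not tested.

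Immediate-early genes are switched on within minutes of a stimulus, by transcription factors already present in the cell and without new protein synthesis. Kinase cascades ending in ERK, JNK and p38 act on SRF with its Elk partners, on CREB and on Jun, which bind short promoter elements. Most of the transcripts are short-lived. Fos and Jun proteins pair through leucine zippers to form AP-1, Egr1 and Atf3 are further transcription factors, and Dusp1 and Zfp36 shut the response down. Mechanical and enzymatic dissociation of tissue is widely known to induce this set of genes.

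The promoters of 8 of the 10 genes (all but Egr1 and Ier2) were in the RefSeq promoter table of build GRCm38.p6 (32851 promoters), while the array values themselves name no build. Stretches of 150 bases that end at the base before the annotated start are shown for a gene of each role, with the response element in capitals. The promoters shown are ones that hold a match, and no motif searched was found in all 8. For Fos (chr12:85473740-85473889, plus strand) the capitals mark 2 copies of TGACG, the first part of the cyclic AMP response element, and the TATA box. For Jun (chr4:95052223-95052372, minus strand) they mark a match to TGANNTCA, a form of AP-1 site. For Dusp1 (chr17:26508473-26508622, minus strand) they mark the whole response element TGACGTCA, and for Zfp36 (chr7:28379229-28379378, minus strand) the CArG box, the element bound by SRF.
Fos: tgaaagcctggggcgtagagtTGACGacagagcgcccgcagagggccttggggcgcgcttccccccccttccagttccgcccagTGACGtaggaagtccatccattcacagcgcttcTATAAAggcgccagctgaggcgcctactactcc
Jun: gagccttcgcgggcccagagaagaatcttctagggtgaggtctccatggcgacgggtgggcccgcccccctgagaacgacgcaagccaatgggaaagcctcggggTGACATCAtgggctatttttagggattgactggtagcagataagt
Dusp1: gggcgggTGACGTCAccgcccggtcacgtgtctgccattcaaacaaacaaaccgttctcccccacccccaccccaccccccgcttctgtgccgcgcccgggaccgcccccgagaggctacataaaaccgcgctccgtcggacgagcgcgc
Zfp36: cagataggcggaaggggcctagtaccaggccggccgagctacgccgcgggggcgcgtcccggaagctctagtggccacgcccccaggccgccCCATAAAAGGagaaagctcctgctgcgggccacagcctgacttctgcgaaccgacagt

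Motifs were searched on both strands in the 250 bases before each start. TGACG was found in 5 of the 8 promoters (Atf3, Dusp1, Fos, Fosb and Junb), against 17.8% of all promoters in the table. TGANNTCA, which includes TGACGTCA, was found in 3 (Dusp1, Jun and Jund), against 11.9% of all. TGACGTCA itself was found in 1 (Dusp1), against 1.55% of all, and the CArG box in 1 (Zfp36), against 1.47%. TATAAA was found in 1 (Fos), against 12.4%, and TGANTCA in 0, against 6.75%. A match is a run of letters in this window, and binding was not measured. Elements further from the start, or that differ from the exact motif, were not counted, so a missing match does not show that a gene lacks the element.

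Both sorted populations had high immediate-early signals, and none of the 10 genes passed the test of a difference between them. Egr1 (1417065_at), a zinc finger transcription factor, had the brightest of all signals on double-positive array 2 and ranked between 1 and 17 on every array. In double-positive arrays 1, 2 and 3 its signal was 82764, 91823 and 56670, against 70947, 73841 and 55364 in single-positive arrays 1, 2 and 3 (signal intensity in arbitrary units). The groups overlapped, with array 3 lowest in each. Probe sets differ in how well they bind, so a rank on the array places a signal in the range of the scanner and does not order transcript amounts between genes.

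**Figure D1:**
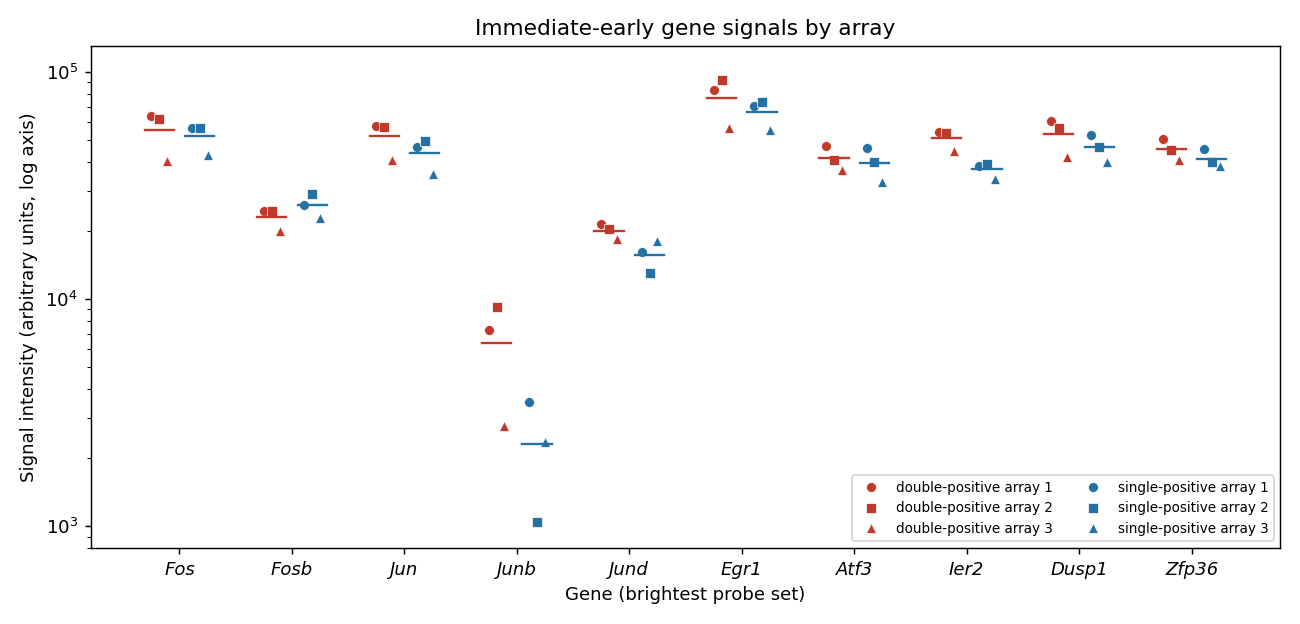
Signal intensity (arbitrary units, log axis) of the brightest probe set of each gene on the 3 double-positive (red, left) and 3 single-positive (blue, right) arrays, with the group mean as a bar. Apart from Junb the genes vary at most 1.66-fold over the 6 arrays, and array 3 (triangle) is the lowest of its group for most genes.

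By mean signal over the 6 arrays, 6 of the 10 genes (Fos, Jun, Egr1, Ier2, Dusp1 and Zfp36) were among the top 1% of the 13464 genes tested. Atf3 was brighter than 98.7% of those genes, Fosb than 96.2% and Jund than 93.9%, while Junb was brighter than 67.7%. Fibroblast markers were bright in the same arrays, with 6 of 8 in the top 1%.

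Of the AP-1 subunits, Fos (1423100_at) had signals of 63610, 61890 and 40621 in double-positive arrays, against 56849, 56746 and 42862 in single-positive arrays. The double-positive values enclosed the single-positive ones, and the log2 fold change on the log2(signal + 25.042) scale was 0.07 (SE 0.19, adjusted p = 0.913 in limma). The 95% interval of the difference ran from 0.784-fold to 1.41-fold. Fos carries the leucine zipper that needs a Jun partner to bind DNA.

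Fosb (1422134_at), a second Fos-type subunit, was the 1 gene of the 10 with a lower mean in double-positive arrays. Its signals were 24305, 24345 and 20021 in double-positive arrays, against 25876, 29045 and 22833 in single-positive arrays. The groups overlapped, and the log2 fold change was -0.18 (SE 0.16, adjusted p = 0.660 in limma), with a 95% interval of 0.692-fold to 1.13-fold.

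Jun, the subunit that can bind DNA as a pair with itself, had signals of 57890, 57318 and 40746 in double-positive arrays, against 46776, 49545 and 35352 in single-positive arrays on its brighter probe set (1417409_at). Double-positive arrays 1 and 2 lay above all 3 single-positive arrays, and double-positive array 3 lay among them. The log2 fold change was 0.24 (SE 0.18, adjusted p = 0.580 in limma), with a 95% interval of 0.896-fold to 1.56-fold. The other Jun probe set (1448694_at) had 27893, 28268 and 32860 in double-positive arrays, against 29092, 32815 and 26473 in single-positive arrays. On that probe set double-positive array 3 was the highest of the 6 arrays, where it was the second lowest on the brighter one, and the log2 fold change was 0.01 (95% interval -0.32 to 0.34, adjusted p = 0.987 in limma over all probe sets).

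Junb (1415899_at), a Jun-type subunit that is a weaker activator than Jun, varied most. Its signals were 7292, 9186 and 2762 in double-positive arrays, against 3538, 1041 and 2351 in single-positive arrays. Double-positive arrays 1 and 2 lay above every single-positive array, while double-positive array 3 lay below single-positive array 1. The log2 fold change was 1.46 (SE 0.51), a mean of 6413 ± 3301 in double-positive arrays, against 2310 ± 1249 in single-positive arrays (SD, n = 3 each). It did not pass (adjusted p = 0.152 in limma), and the 95% interval of the difference ran from 1.25-fold to 6.05-fold. Without double-positive array 3 the log2 fold change was 1.98 and passed (adjusted p = 0.0288 in limma). In the fit without that array 1084 of 13483 genes passed. Without single-positive array 2 the log2 fold change of Junb was 0.98 (adjusted p = 0.450 in limma). Without double-positive array 2 it was 1.12 (adjusted p = 0.379 in limma), and neither passed. Over the 18 other settings the adjusted p ran from 0.0288 to 0.450. Over the 6 arrays the highest Junb signal was 8.82 times the lowest.

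Jund (1449117_at), the Jun-type subunit known for steady expression in resting cells, had signals of 21338, 20256 and 18284 in double-positive arrays, against 16144, 12989 and 17962 in single-positive arrays. The groups did not overlap, though double-positive array 3 and single-positive array 3 lay close together, and they overlapped after quantile normalization. The log2 fold change was 0.36 (SE 0.17, adjusted p = 0.335 in limma), with a 95% interval of 0.979-fold to 1.67-fold. A second Jund probe set (1440265_at) was near the limit for dim probe sets, at 108, 187 and 100 in double-positive arrays, against 83, 55 and 113 in single-positive arrays, and did not pass either (adjusted p = 0.723 in limma over all probe sets).

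Ier2 (1416442_at), a nuclear protein named for its immediate-early response, had the smallest p of the 10 genes. Its signals were 54566, 53586 and 44619 in double-positive arrays, against 38675, 39357 and 33638 in single-positive arrays. All 3 double-positive values lay above all 3 single-positive values, with means of 50924 ± 5482 in double-positive arrays, against 37223 ± 3123 in single-positive arrays (SD, n = 3 each). The log2 fold change was 0.45 (SE 0.14, 95% interval 1.11-fold to 1.68-fold), and the limma adjusted p of 0.0892 did not pass the threshold of 0.05. The range of that adjusted p over the 18 other settings was 0.0233 to 0.381. Ier2 passed in 4 of the 18 other settings. Among them was the fit without double-positive array 3 (log2 fold change 0.54, adjusted p = 0.0307 in limma), in which 1084 of 13483 genes passed. It also passed with array weights (log2 fold change 0.51, adjusted p = 0.0233 in limma), where 9.99% of all genes did. After quantile normalization (log2 fold change 0.35, adjusted p = 0.0397 in limma) it passed where 6.39% of all genes did.

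Atf3 (1449363_at), a stress-induced factor of the ATF family, had 47250, 40991 and 36906 in double-positive arrays, against 46178, 40002 and 32691 in single-positive arrays. The groups overlapped almost wholly, and the log2 fold change was 0.08 (SE 0.16, adjusted p = 0.873 in limma, 95% interval 0.826-fold to 1.36-fold). For Egr1 the log2 fold change was 0.19 (SE 0.18, adjusted p = 0.695 in limma, 95% interval 0.858-fold to 1.52-fold).

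Dusp1 and Zfp36 act to end the response. Dusp1 (1448830_at), a phosphatase that inactivates p38, JNK and ERK, had 60555, 56873 and 42124 in double-positive arrays, against 52619, 46764 and 40293 in single-positive arrays. Zfp36 (tristetraprolin, 1452519_a_at), which binds AU-rich elements and speeds the decay of early transcripts, had 50634, 45297 and 40871 in double-positive arrays, against 45552, 40007 and 38382 in single-positive arrays. In both genes array 1 was the brightest and array 3 the dimmest of each group, and the groups overlapped. The log2 fold changes were 0.18 (SE 0.16, adjusted p = 0.664 in limma) for Dusp1 and 0.14 (SE 0.14, adjusted p = 0.689 in limma) for Zfp36, with 95% intervals of 0.881-fold to 1.46-fold and 0.895-fold to 1.36-fold.

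**Figure D2:**
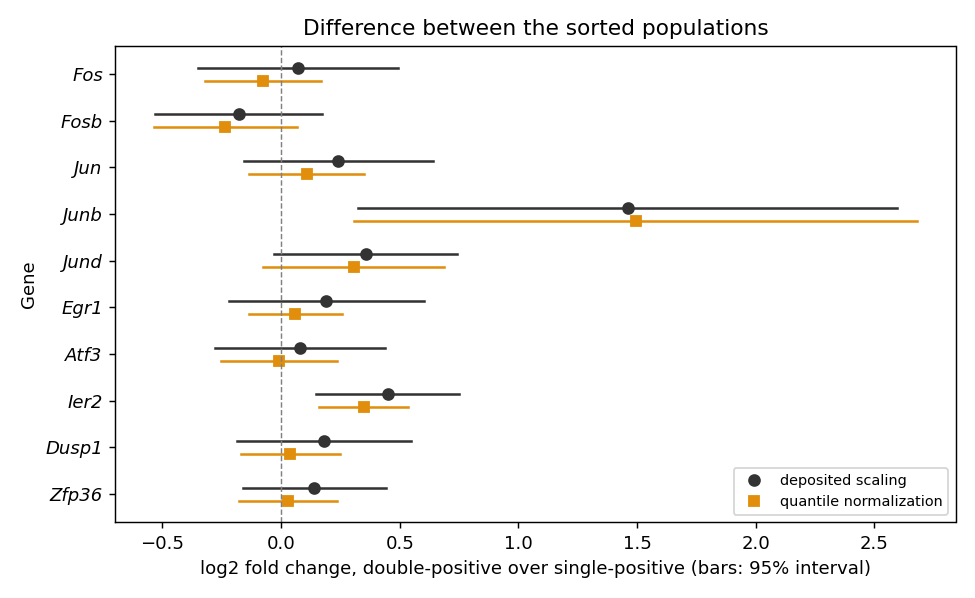
Log2 fold change, double-positive over single-positive, of each gene with its 95% interval from limma, with the deposited scaling (dark circles) and after quantile normalization (orange squares). With the deposited scaling the intervals of Ier2 and Junb lie above 0, and those of the other 8 genes include it.

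In the fit over all 13464 genes, 0 of the 10 genes passed an adjusted p of 0.05 in limma, where 6.37% of all genes did. At an unadjusted p under 0.05 the count was 2 (Ier2 and Junb), where 17.6% of all genes were, and with array weights in limma 2 passed, where 9.99% of all genes did. In 2 of the 10 genes (Ier2 and Jund) the groups stood apart without overlap, both higher in double-positive arrays. They did not overlap for 22.4% of all genes (10.5% higher in double-positive arrays) and for 21.2% of bright genes, defined next. For Ier2 and Jund an exact two-sided permutation test over the arrays gave p = 0.1, the smallest that 3 against 3 arrays allow. None of the 12 probe sets passed in the fit over 27022 probe sets, where 3.42% did. A higher mean in double-positive arrays was seen for 9 of the 10 genes, and for 51.8% of all genes tested. The median log2 fold change was 0.19 over the 10 genes and 0.02 over all genes tested. Over the 826 genes at least as bright as Jund, a group formed after the values were seen, the median was 0.06, 59.4% had a higher mean in double-positive arrays and the adjusted p was under 0.05 for 5.93%.

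**Figure D3:**
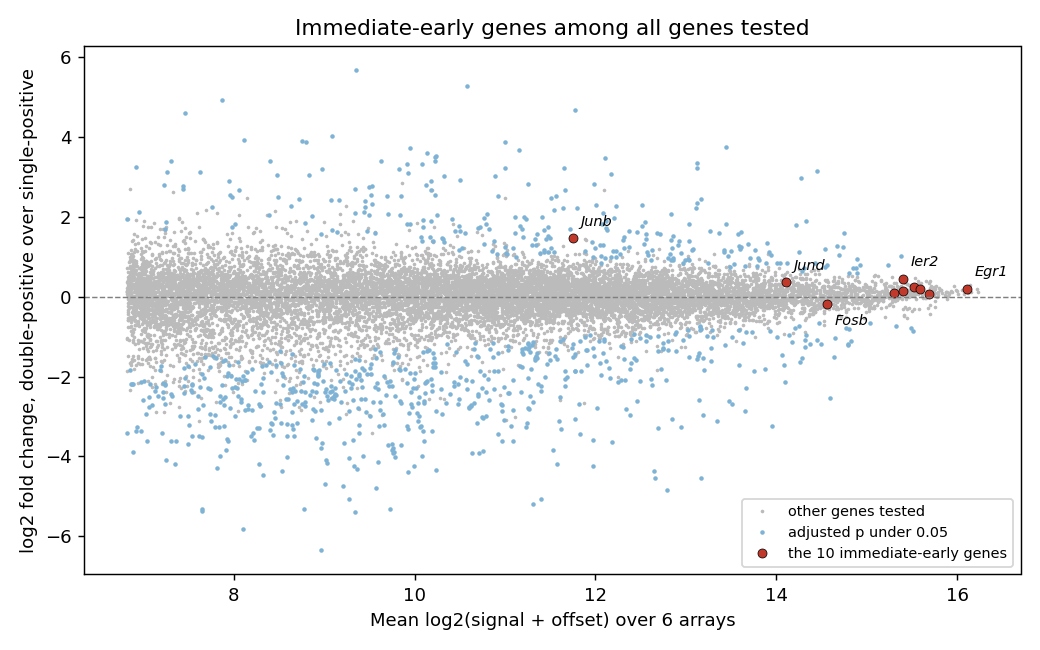
Log2 fold change, double-positive over single-positive, against mean log2(signal + 25.042) for the 13464 genes tested, with genes of adjusted p under 0.05 in blue and the 10 immediate-early genes in red. Of the 10 genes 9 lie at a mean of 14.11 or above, where the median absolute log2 fold change is 0.16, against 0.32 over all genes tested, and Junb lies lower on the axis with a log2 fold change of 1.46.

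Most of the 10 genes were dimmest on array 3 of each group. For 8 of the 10 (all but Junb and Jund) array 3 gave the lowest value in double-positive and in single-positive cells alike. The same held for 37.4% of the 826 bright genes and for 12.7% of all genes tested. Array 3 of each group also had a lower upper range. The signal that 0.1% of probe sets exceeded was 50450.5 on double-positive array 3, against 68751 and 66748 on the other 2 double-positive arrays. On single-positive array 3 it was 50246, against 60918 and 59802 on the other 2 single-positive arrays. After quantile normalization, which gives every array the same range, array 3 was the lowest of both groups for 4 of the 10. The median spread over the 6 arrays, highest minus lowest log2 value, was then 0.35, against 0.67 with the deposited scaling. Quantile normalization gives equal ranks equal values on every array, so for genes near the top rank a smaller spread is partly built in. The share of all genes lowest on array 3 was not counted after it, and the cause of the array 3 pattern was not tested. For Fosb and Junb the spread was not smaller after quantile normalization. Set against the mean pattern of all 10 genes over these 6 arrays, Pearson's r was lowest for Fosb (0.12) and highest for Dusp1 (0.96), as a description of arrays that the genes share. Each gene is itself part of that mean, in which Junb, with the widest spread, weighs most.

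**Figure D4:**
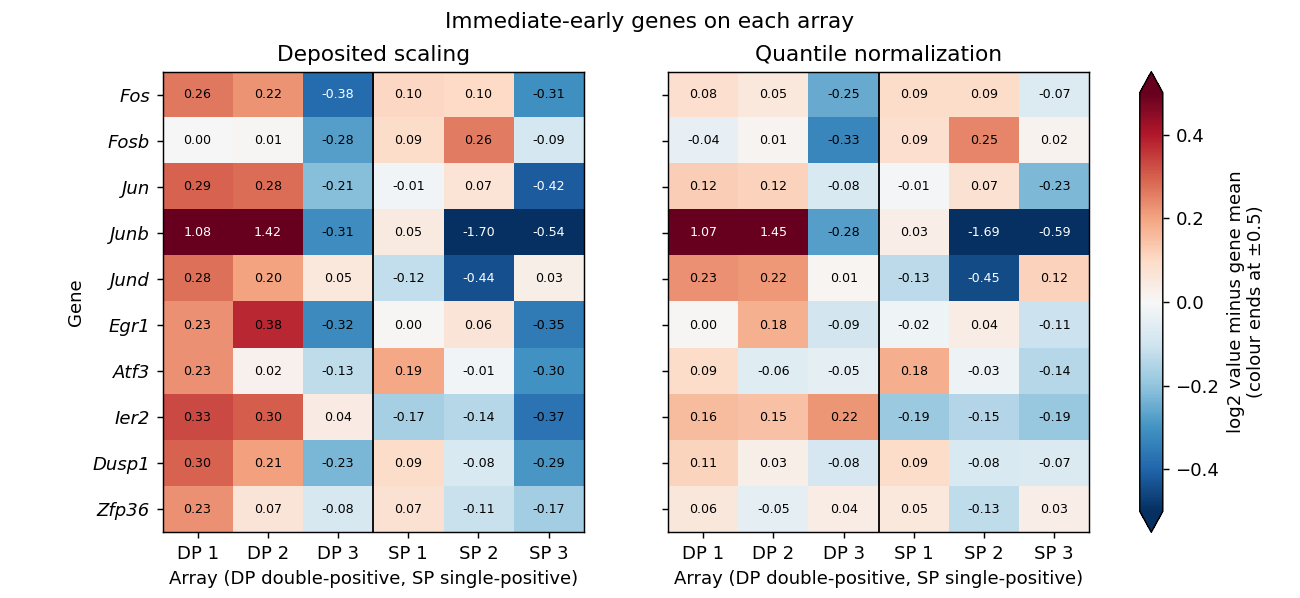
Log2 value of each gene on each array minus the gene's mean over the 6 arrays, with the deposited scaling (left) and after quantile normalization (right), double-positive arrays before single-positive arrays in each panel. Array 3 of each group is below the gene mean for most genes on the left and, for most, closer to it on the right, and some Junb values exceed the colour range in both panels.

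The ratio of 3' to 5' control signal, which incomplete copying and broken RNA both raise, did not order the arrays in this way for Actb. It was 4.66, 2.78 and 8.02 in double-positive arrays 1, 2 and 3, against 5.97, 5.46 and 3.23 in single-positive arrays 1, 2 and 3. For Gapdh it was highest on array 3 of each group, at 17.2, 17.2 and 23.9 in double-positive arrays, against 15.2, 11.8 and 20.6 in single-positive arrays. The part of these ratios in the lower signals was not tested, beyond the fit with the Actb ratio as a covariate, in which 0 of the 10 genes passed.

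The genes whose pattern was most like the mean of the 10 over the 6 arrays were Fnta (a subunit of farnesyltransferase), Lrpap1 (a chaperone of lipoprotein receptors), Tmem234 (a membrane protein), Coro1b (an actin-binding coronin) and Gpx4 (a lipid peroxide reductase). Likeness was Pearson's r over 6 arrays that the genes share, 0.995 for Fnta and 0.987 to 0.989 for the other 4, given as a description. The mean was taken over log2 values centred but not scaled by gene, so Junb weighs most in it. The spread of Junb over the 6 arrays was 3.11 in log2, against 0.40 to 0.73 for the rest of the 10. None of the 5 passed the test between the groups, with adjusted p between 0.370 and 0.666 in limma.

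Many markers of cell types passed the same test. Of 10 smooth muscle markers 9 fell in double-positive arrays, with a summed signal of 105706 to 145689 in double-positive and 290594 to 374138 in single-positive arrays. All 13 leukocyte markers fell, with sums of 12515 to 20511 in double-positive and 92808 to 131690 in single-positive arrays. Of the endothelial markers 4 of 8 fell (sums of 5732 to 7068 in double-positive and 17522 to 21913 in single-positive arrays), of the urothelial markers 7 of 11 (sums of 4735 to 8246 in double-positive and 21338 to 37789 in single-positive arrays), and of the nerve and Schwann cell markers 3 of 6 tested (sums of 1165 to 2459 in double-positive and 8505 to 10008 in single-positive arrays). None of 8 fibroblast markers passed, with sums of 364726 to 507599 in double-positive and 366655 to 435920 in single-positive arrays. The part of these cell types in the immediate-early values was not tested, and in bulk samples fewer cells of a type and less RNA per cell cannot be told apart.

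Further genes of the response were read from lists by role. Of 10 other AP-1 and Maf genes tested (12 were listed), none passed, and 9 had a higher mean in double-positive arrays (median log2 fold change 0.46). Over all genes tested 51.8% had a higher mean, and the median was 0.02. Only 1 of these 10 was at least as bright as Jund, so the median rests mostly on dimmer genes than that of the 10 immediate-early genes. Maf, a large Maf factor found in macrophages among other cells, had the smallest p, at 6360 ± 2490 in double-positive arrays, against 11401 ± 332 in single-positive arrays (SD, n = 3 each, log2 fold change -0.93, adjusted p = 0.111 in limma). It passed in 3 of the 18 other settings, without double-positive array 3 (log2 fold change -1.16, adjusted p = 0.0417 in limma), with array weights and on another choice of probe set, and over the 18 settings the adjusted p ran from 0.0117 to 0.440. Of 4 other tested probe sets of Maf 1 passed in the same direction. Batf3, a factor of dendritic cells, was dim, at 343 ± 118 in double-positive arrays, against 175 ± 32.8 in single-positive arrays (SD, n = 3 each, adjusted p = 0.314 in limma).

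Of 24 other early transcription factors, 1 rose and none fell, where 1.98% of all genes rose and 4.38% fell. The median log2 fold change of the list was 0.24, and 18 had a higher mean in double-positive arrays. Hes1, a repressor best known as a Notch target, rose with signals of 5084, 4590 and 4140 in double-positive arrays, against 1821, 1210 and 2156 in single-positive arrays. Its groups did not overlap, and the log2 fold change was 1.43 (SE 0.28, adjusted p = 0.0132 in limma). It missed the threshold without double-positive array 1 (adjusted p = 0.0527 in limma) or single-positive array 2 (adjusted p = 0.0535 in limma), the highest values of the 18 other settings.

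Of 40 other early effectors tested (45 were listed), 4 rose, 1 fell and 35 did not pass, where 1.98% of all genes rose and 4.38% fell. The median log2 fold change of the 40 was 0.23, and 24 had a higher mean in double-positive arrays. At an unadjusted p under 0.05 in limma, in either direction, were 21 of the 40, where 17.6% of all genes were. The lists of other early transcription factors, AP-1 and Maf genes, feedback genes and upstream genes held 9, 1, 1 and 1. All these lists were chosen with earlier results of these data known. These counts rest on the brightest probe set of each gene. On that probe set Socs3 did not pass (log2 fold change 0.33, adjusted p = 0.214 in limma). Its 2 other tested probe sets both passed as higher in the fit over probe sets, where 3.42% of all probe sets passed. Plk2, a polo-like kinase, rose with signals of 24238, 17083 and 22299 in double-positive arrays, against 7674, 6450 and 7106 in single-positive arrays (log2 fold change 1.57, SE 0.19, adjusted p = 0.00117 in limma). Averaged over all its probe sets, the others of which were dim, Plk2 had 0.59 and did not pass (adjusted p = 0.344 in limma). Ccl2, a chemokine that draws monocytes, fell, with signals of 345, 400 and 497 in double-positive arrays, against 2321, 1785 and 2803 in single-positive arrays (log2 fold change -2.40, SE 0.33, adjusted p = 0.00191 in limma). Ccl2 passed with any 1 array left out. Many markers of smooth muscle, leukocytes, endothelium, urothelium and nerve also fell, and the part of these cell types in the Ccl2 values was not tested.

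Hspa1a and Dnajb1, a heat shock protein and its co-chaperone, rose by small amounts. Hspa1a had 33889, 35371 and 35746 in double-positive arrays, against 24205, 23302 and 22579 in single-positive arrays, with a log2 fold change of 0.58 (SE 0.13, adjusted p = 0.0236 in limma). Dnajb1 averaged 37662 ± 4777 in double-positive arrays, against 24656 ± 1285 in single-positive arrays (SD, n = 3 each), with a log2 fold change of 0.60 (adjusted p = 0.0335 in limma). The 1 other tested probe set of Dnajb1 also passed as higher in the fit over probe sets. Phlda1, a pleckstrin-like protein induced by growth signals, had 10595 ± 2432 in double-positive arrays, against 5309 ± 441 in single-positive arrays (SD, n = 3 each, log2 fold change 0.97, adjusted p = 0.0290 in limma). Each of these 3 genes missed the threshold when any of 5 of the 6 arrays was left out. The exception was double-positive array 3 for Hspa1a and Dnajb1 and double-positive array 2 for Phlda1, and adjusted p without 1 array reached 0.0942, 0.121 and 0.106 for Hspa1a, Dnajb1 and Phlda1. The near-identical copy Hspa1b, whose signal may share transcripts with Hspa1a, had a log2 fold change of -0.05.

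**Figure D5:**
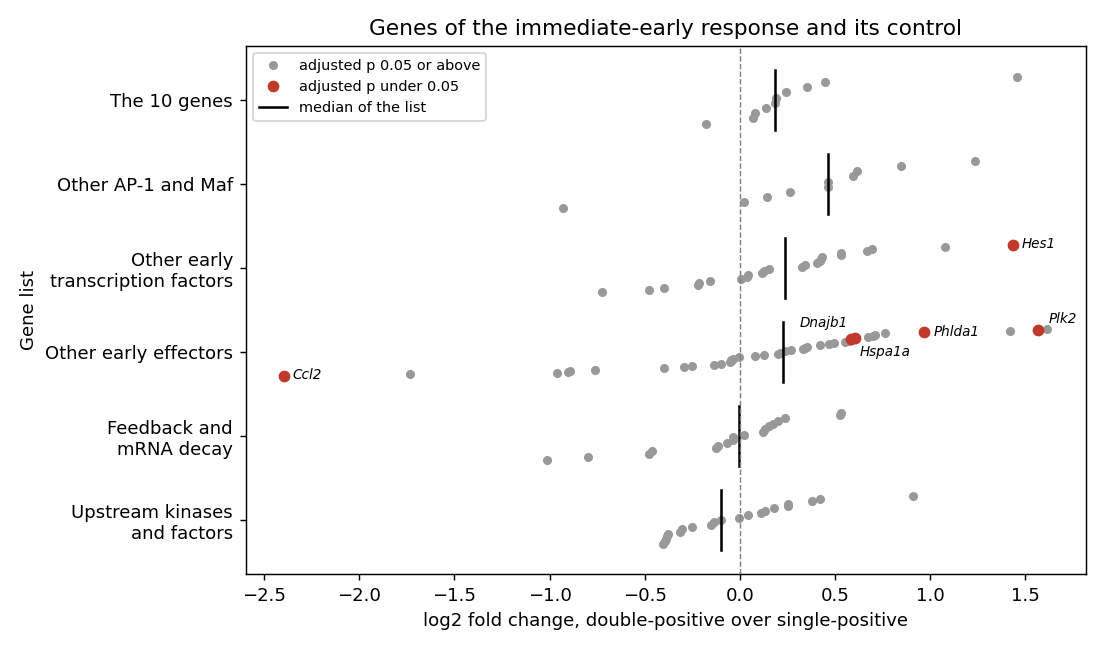
Log2 fold change, double-positive over single-positive, of each tested gene in 6 lists, with genes of adjusted p under 0.05 in red and the median of each list as a black line. The 10 immediate-early genes hold no red point, and the red points are Hes1 among transcription factors and Plk2, Phlda1, Dnajb1, Hspa1a and Ccl2 among effectors.

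Of 18 genes of feedback and mRNA decay none passed, and the median log2 fold change was -0.0048. Dusp6, the ERK phosphatase, had 10244, 6327 and 14523 in double-positive arrays, against 26119, 16872 and 17651 in single-positive arrays. Its groups did not overlap, and the log2 fold change was -1.01 (SE 0.29, adjusted p = 0.0780 in limma). It passed in 4 of the 18 other settings, over which the adjusted p ran from 0.0180 to 0.271. Among these were the fits without double-positive array 3 (log2 fold change -1.30, adjusted p = 0.0180 in limma), with array weights (adjusted p = 0.0283 in limma) and with the Actb ratio as a covariate (adjusted p = 0.0188 in limma). Spry1, an inhibitor of receptor tyrosine kinase signals, had 6174 ± 944 in double-positive arrays, against 8593 ± 1896 in single-positive arrays (SD, n = 3 each, adjusted p = 0.351 in limma).

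Of 21 upstream kinases and factors tested (27 were listed), such as the p38 kinase Mapk14, Srf and Elk1, none passed and the median log2 fold change was -0.10. The smallest p were those of Map2k6 and Map2k4, kinases that activate p38 and JNK. Map2k6 had 463 ± 125 in double-positive arrays, against 233 ± 64.4 in single-positive arrays (SD, n = 3 each, log2 fold change 0.91, adjusted p = 0.265 in limma). Map2k4 had 9635 ± 271 in double-positive arrays, against 12736 ± 1978 in single-positive arrays (SD, n = 3 each, log2 fold change -0.39, adjusted p = 0.320 in limma).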

How the data were processed

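RNA of each sample was amplified in 2 rounds, labelled with biotin and hybridised to 1 Affymetrix MOE430 array, per the labels' protocols. The deposited values are linear signal intensities. Per the submitters' processing notes the tool was GCOS, whose algorithm and version the sources used here do not give. Trimmed by 2% at both ends, the mean was 1500.01 for each array, which shows that the authors had scaled the deposited values, and median signal was 147 to 200 in double-positive and 153 to 199 in single-positive arrays. The number of arrays limits the precision.

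Probe set names came from the platform's annotation, and Entrez identifiers matched 34741 of 34945 probe sets with 1 symbol to RefSeq. Values became log2(signal + 25.042), with the 20th percentile as offset and no rescaling because array medians differed 1.36-fold, under a limit of 1.5. Each gene was represented by its brightest probe set, with a minimum mean of 6.82 (the 40th percentile over probe sets), leaving 13464 genes to test. The fold changes understate those of dim genes. The test was limma 3.58.1 (R 4.3.3, lmFit and eBayes, variance trend on). It was two-sided, p-values were adjusted by Benjamini-Hochberg over all features, and the threshold was 0.05.

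The genes and lists were chosen with earlier results of these data known. From each further list the genes past the threshold were named if 5 or fewer, the 5 of smallest p if more, or the 2 of smallest p if none, and the 5 genes of highest r to the mean of the 10 were named, without clone names. Tested on simulated data for the 13464 genes, the comparison found 10% of changes set at log2 1 and 52% of those set at log2 2, with 3 false among 65 calls. Each size was set in 100 genes drawn at random from all genes tested, dim ones included. The shares are therefore not those of bright genes, such as most of the 10, for which recovery was not tested separately. Alternatives covered normalization, offset, filter, probe set choice, variance model, array weights, replicate block, the Actb ratio and leaving out each array. Quantile normalization of the array 3 pattern was added after seeing the data.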

Additional observations from a re-analysis of the deposited data

How the results depend on the processing

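The count of the 10 genes past the threshold was 0 with the deposited scaling, 1 (Ier2) after quantile normalization, 1 (Ier2) with the replicate number as a block, 2 (Ier2 and Junb) with array weights, and 0 to 2 when 1 array was left out. Of all genes 6.37% passed with the deposited scaling, 6.39% after quantile normalization and 9.99% with array weights. With the block 1014 of 13464 passed, and without double-positive array 3, where the count was 2, 1084 of 13483 did. The replicate numbers were not taken to pair the arrays, since same-numbered deviations from the group means correlated at 0.19, 0.05 and 0.02 over 13464 genes, and not every array correlated best with its own number. Over the 826 bright genes, which hold 9 of the 10, the same correlations were 0.21, 0.15 and 0.07, and those between different numbers were -0.16 to 0.02, so that every array correlated best with its own number there. This is a hint from the data, not the design. With the replicate block 324 genes were higher and 690 lower, and Ier2 had a log2 fold change of 0.45 (adjusted p = 0.0242 in limma), and Dusp6, which missed the threshold without the block, had -1.01 (adjusted p = 0.0235 in limma). Over probe sets the count was 1 (Ier2) with array weights and 0 in every other setting. The direction changed for Fos (-0.08 after quantile normalization, -0.07 to 0.28 with 1 array left out), for Atf3 (-0.01 after quantile normalization, -0.05 to 0.20 with 1 array left out) and for the second Jun probe set (-0.02 after quantile normalization and with array weights, -0.06 to 0.09 with 1 array left out), none of which passed in any setting, and the cause was not tested. Of all genes 267 were higher and 590 lower, against 435 and 910 with array weights, and 160 to 348 and 303 to 736 with 1 array left out. Of all probe sets 272 were higher and 653 lower, against 483 and 1156 with array weights, 163 higher with no variance trend, and 123 to 337 and 262 to 784 with 1 array left out. Among other early effectors the 4 that rose numbered 1 to 7 and the 1 that fell 1 to 5 over all settings, and of the early transcription factors 0 to 4 rose. Hspa1a, Phlda1 and Dnajb1 missed the threshold after median centring and with no variance trend, and Dnajb1 also with no filter.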

Other observations

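Brightness was uneven among the further genes of the response. Of the 24 other early transcription factors tested 10 were at least as bright as Jund, as were 19 of the 40 other effectors, 2 of the 18 genes of feedback and mRNA decay and 1 of the 10 other AP-1 and Maf genes. The families described next were chosen after their values were seen, and every tested member in the lists is given.

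Of the Nr4a orphan nuclear receptors, Nr4a1 had a mean signal of 42286 in double-positive arrays, against 31666 in single-positive arrays, with groups that did not overlap (log2 fold change 0.42, adjusted p = 0.111 in limma). Nr4a2 had 17317 in double-positive arrays, against 17858 in single-positive arrays, and Nr4a3 had 17612 in double-positive arrays, against 16736 in single-positive arrays, both with overlap. Of the other Egr factors, Egr2 had 28078 in double-positive arrays, against 20870 in single-positive arrays, without overlap (log2 fold change 0.43, adjusted p = 0.179 in limma). Egr3 had 5967 in double-positive arrays, against 7070 in single-positive arrays, and the dim Egr4 had 315 in double-positive arrays, against 417 in single-positive arrays, without overlap. None of these 6 genes passed, and both families held values in either direction.

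Of the Klf zinc finger factors, Klf4 had 63260 in double-positive arrays, against 57731 in single-positive arrays, and ranked between 21 and 67 on every array. Klf6 had 33184 in double-positive arrays, against 38376 in single-positive arrays, and Klf2 had 22550 in double-positive arrays, against 25738 in single-positive arrays. Klf10 had 8103 in double-positive arrays, against 12836 in single-positive arrays, without overlap (log2 fold change -0.72, adjusted p = 0.176 in limma). Klf9 had 25940 in double-positive arrays, against 25774 in single-positive arrays. None of these 5 passed.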
